A study of Mus musculus with 6 samples.

Results

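The MYC network of transcription factors was examined in mouse RM1 prostate cancer cells through 10 gene entries of 23791: the MYC family genes Myc, Mycn and Mycl, their partner gene Max, the antagonist genes Mxd1, Mxd3, Mxd4 and Mnt, and the target genes Odc1 and Cad. All 10 were in the deposited table of read counts and all 10 passed the filter on low counts. The members were chosen by gene name and role with the levels of these same 6 libraries in view, so their levels and comparisons are a description. The p values printed for them place each gene among the 13832 tested and support nothing further. Mycn and Mycl passed the filter on few reads, with at most 180 and 25 in any library. Myc itself was lowest in cells recovered from bone and highest in cells recovered from lung of the same mouse, 8.34 against 124 counts per 1e6 counts (CPM). Max and Mnt stayed within a 1.89-fold range over the 6 libraries, Mycn was above 1 CPM in a single library, and Odc1 and Cad were not highest where Myc was highest. By edgeR no member passed the adjusted threshold in any comparison of groups, while DESeq2 called Mycn, Mxd1, Myc and Mxd3 in 1 or more of them. Of all genes tested, edgeR called 5.64% between the culture groups and at most 0.0145% in any comparison with recovered cells. DESeq2 called 10.6% between the culture groups and 1.6% to 2.75% in the comparisons with recovered cells.

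The 6 libraries fell into 4 groups of C57BL/6 cells. Bone was 1 library of eCFP- and luc2-labelled RM1 cells (RM1536) taken from the femur of a mouse 16 days after intracardiac injection of cells stained with PKH26. Lung was 1 library of the same labelled cells from the lung of that mouse. Both were PKH-negative and are described by the submitters as dividing cells. RM1536 in culture had replicates a and b and is a line of pooled clones. Unlabelled RM1 in culture had replicates a and b. Cells were sorted and grown again in culture before RNA was made, so bone and lung hold expanded cells from 1 animal. Whether a and b were separate cultures is not stated, so p values reflect only how far these libraries of a pair lie apart, and that spread may be technical. Lines of the RM series were made by putting ras and myc oncogenes into mouse prostate tissue. A count per gene does not tell reads of the native Myc gene from reads of an introduced myc sequence that aligned to it, and the part of such reads was not tested.

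MYC proteins bind DNA only as a pair with MAX, at the E-box sequence CACGTG, and raise the transcription of genes for growth, ribosomes and metabolism. MXD and MNT proteins compete for the same MAX and recruit SIN3 repressor complexes to the same sites. In prostate cancer, extra copies or raised levels of MYC are frequent, and MYCN is linked to neuroendocrine disease.

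The E-box is shown here in the promoters of the network's own genes, since it is the sequence on which both sides of the network meet. RefSeq promoter windows (GRCm38.p6, 250 bases before to 50 after a transcription start) were matched for 9 of the 10 genes, all but Myc. CACGTG, which reads the same on both strands, was found in 3 of these 9 windows, those of Max, Mxd4 and Mnt. It was found in 7.15% of all 32851 windows of that length. A match is a description of letters and not a bound site. The stretch from 250 bases before to 3 bases after the start is given 5′ to 3′ for these 3 genes, with the E-box in capitals.
Max (chr12:76962246-76962498, minus strand, E-box beginning 3 bases before the start)
Max: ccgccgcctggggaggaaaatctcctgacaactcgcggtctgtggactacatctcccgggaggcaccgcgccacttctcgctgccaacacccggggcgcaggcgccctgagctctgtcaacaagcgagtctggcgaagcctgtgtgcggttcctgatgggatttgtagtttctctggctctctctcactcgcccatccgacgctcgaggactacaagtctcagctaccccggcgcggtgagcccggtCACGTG
Mxd4 (chr5:34187708-34187960, minus strand, E-box beginning 219 bases before the start)
Mxd4: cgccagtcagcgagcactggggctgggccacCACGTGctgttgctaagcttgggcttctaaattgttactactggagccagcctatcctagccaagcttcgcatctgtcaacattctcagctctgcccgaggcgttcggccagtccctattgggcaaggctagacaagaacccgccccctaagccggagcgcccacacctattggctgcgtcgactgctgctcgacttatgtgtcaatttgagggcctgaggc
Mnt (chr11:74830674-74830926, plus strand, E-box beginning 123 bases before the start)
Mnt: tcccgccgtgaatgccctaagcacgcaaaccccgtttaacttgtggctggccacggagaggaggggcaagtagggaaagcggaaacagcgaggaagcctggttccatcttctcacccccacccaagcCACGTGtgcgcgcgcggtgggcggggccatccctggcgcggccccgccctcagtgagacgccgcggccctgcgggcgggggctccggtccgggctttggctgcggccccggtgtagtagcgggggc
The windows of Mycn, Mycl, Mxd1, Mxd3, Odc1 and Cad held no such letters, which says nothing of sites outside the window.

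Depth was 22.8 to 30.3 in units of 1e6 counts a library. Normalized levels are CPM scaled by trimmed-mean (TMM) factors of 0.942 to 1.03. Duplicates differed beyond counting error, and mitochondrially encoded genes took 1.83% of counts in bone, 1.95% in lung, 1.30% and 1.20% in RM1536 and 0.932% and 0.567% in RM1. Of the prostate epithelium markers, Krt8 (966 to 2366 CPM) and Krt18 (275 to 458 CPM) were present in all 6 libraries, while Hoxb13 and Krt5 had 0 reads in all of them. Of 11 leukocyte markers, 10 were in the table and summed to 23.0 CPM in bone, 23.8 in lung, 11.5 and 4.17 in RM1536 and 15.2 and 45.4 in RM1, with the leukocyte gene Ptprc at or below 0.0668 CPM. Most of that sum was Cd68, and Lyz2 was at 2.68 CPM in bone and 2.88 in lung against 0 reads in the 4 culture libraries. Ly6g went the other way, at 5.38 and 1.81 CPM in RM1 a and b against 0 in bone and 0.0395 in lung. The part of such cells in the results below was not tested. In bulk RNA, fewer cells of a type and less RNA per cell cannot be told apart.

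Myc (chr15:61985391-61990374, GRCm38, plus strand), which codes for the c-MYC protein, had the widest range of the members other than Mycn. It stood at 8.34 CPM in bone and 124 in lung, at 38.4 and 15.2 in RM1536 a and b, and at 24.2 and 48.1 in RM1 a and b. The bone library was below all 4 culture libraries and the lung library above all of them. The culture groups overlapped: RM1536 averaged 26.8 ± 16.4 CPM and RM1 36.1 ± 16.9 CPM (SD, n = 2 each). Within each culture pair, the duplicates of Myc differed by more than the means of the lines did, 2.52-fold higher in RM1536 a than b and 1.99-fold higher in RM1 b than a. Ordered by level, lung came highest and bone lowest, and the neighbours RM1 and RM1536 did not differ beyond the spread of their duplicates.

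For Myc the read counts were 190 in bone and 3141 in lung, a ratio of 0.0673 (exact 95% counting interval 0.0578 to 0.0779), or 14.9-fold lower in bone (12.8 to 17.3). Counting intervals cover counting error only. In edgeR's quasi-likelihood test with Benjamini-Hochberg (BH) adjustment over all 13832 genes, bone against lung gave a log2 fold change of -3.89 ± 0.81 (SE), an unadjusted p of 0.00293 and an adjusted p of 0.321. Bone and lung have no replicate, and the test takes their spread from the culture pairs. A smaller p was found for 0.904% of the genes tested. Against RM1536, the log2 fold change of Myc was -1.68 ± 0.69 in bone (adjusted p = 0.503) and 2.21 ± 0.60 in lung (adjusted p = 0.307). These comparisons share the RM1536 libraries. Without RM1536 a the value in bone was -0.86 and that in lung 3.05, and without RM1536 b they were -2.20 and 1.71. RM1536 against RM1 had -0.43 ± 0.51 (adjusted p = 0.671), and the sign turned without RM1 b (0.14) or RM1536 b (0.06). It was -0.87 without RM1 a and -1.28 without RM1536 a.

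**Figure D1:**
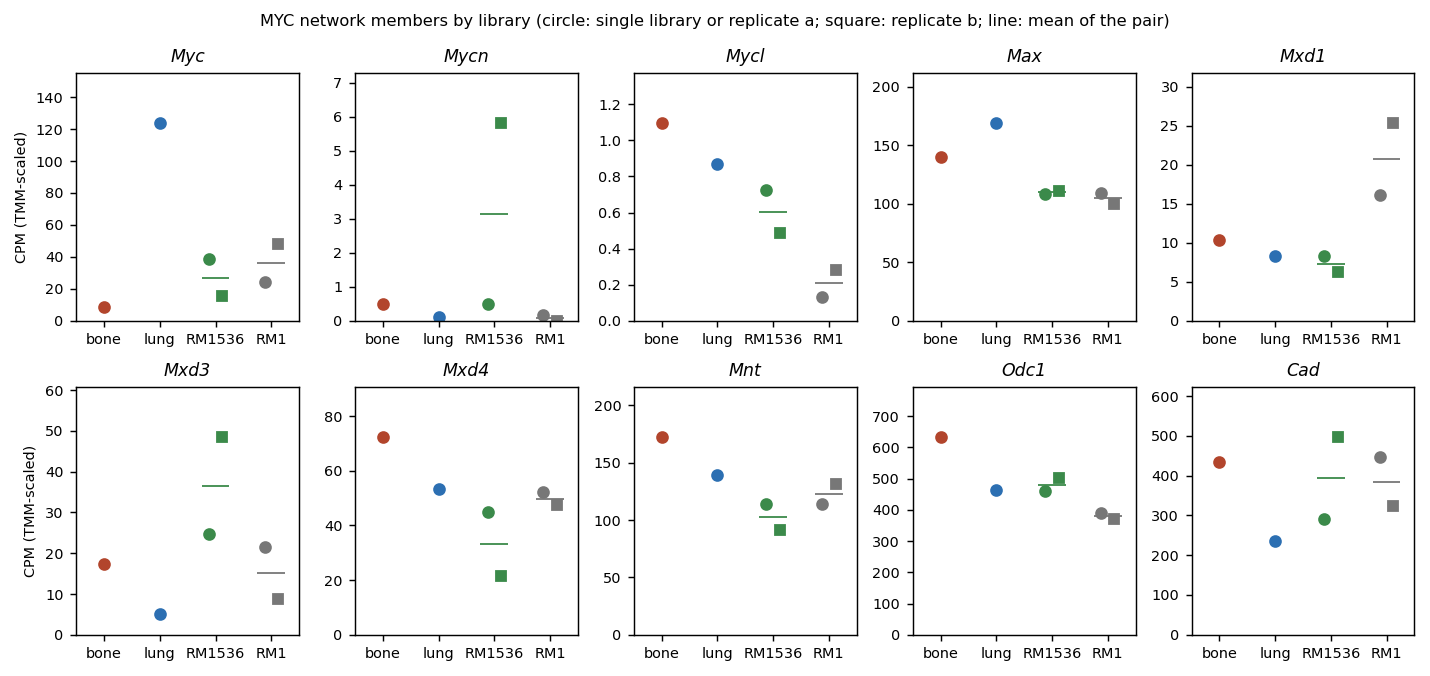
Normalized level (CPM, linear axis from 0) of the 10 MYC network genes in bone, lung, RM1536 and RM1, with circles for single libraries or replicate a, squares for replicate b and lines for the mean of a pair. Myc was lowest in bone (8.34 CPM) and highest in lung (124 CPM), Mycn was above 1 CPM in RM1536 b alone, and Max, Mnt and Odc1 stayed within a 1.89-fold range.

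Mycn (chr12:12936093-12941914), the family member known from neuroblastoma, was near the detection limit in 5 of 6 libraries. It had 11 reads in bone and 3 in lung, 12 and 180 in RM1536 a and b, and 5 and 0 in RM1 a and b. RM1536 b therefore held 180 of the 192 reads of its group, at 5.82 CPM against 0.483 in RM1536 a. The 0 reads in RM1 b allow up to 0.109 CPM. The fitted log2 fold change of RM1536 against RM1 was 5.14 ± 1.53 (adjusted p = 0.119), and was 2.42 (adjusted p = 0.467) without RM1536 b. Leaving out RM1 a gave 9.38, RM1 b 4.21 and RM1536 a 5.99. Bone against RM1536 had -2.70 ± 1.68 (adjusted p = 0.707), which was 0.00 without RM1536 b. Lung against RM1536 had -4.69 ± 2.02 (adjusted p = 0.378), and -1.96 without RM1536 b. The level above 1 CPM was thus that of a single library and not of a group.

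Mycl (chr4:122995652-123002485), the third family member, had 25 reads in bone and 22 in lung, 18 and 15 in RM1536, and 4 and 8 in RM1. All 4 libraries of labelled cells had more than both RM1 libraries. RM1536 against RM1 had a ratio of 2.87 with a counting interval of 1.44 to 6.10, a log2 fold change of 1.52 ± 0.66 and an adjusted p of 0.244. Against RM1536, bone had 0.86 ± 0.71 and lung 0.53 ± 0.72 (adjusted p = 0.795 and 0.751), and bone against lung had 0.34 ± 0.82 (0.926). All levels were at or below 1.10 CPM.

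Max (chr12:76937269-76962201), which codes for the obligate partner, had the narrowest range of the members. It stood at 140 CPM in bone and 169 in lung, 108 and 111 in RM1536, and 110 and 99.5 in RM1. Both recovered libraries were above all 4 culture libraries, and the culture groups overlapped. The log2 fold change was 0.35 ± 0.23 in bone (adjusted p = 0.732) and 0.62 ± 0.23 in lung (0.341) against RM1536, 0.07 ± 0.19 in RM1536 against RM1 (0.864), and -0.28 ± 0.27 in bone against lung (0.792).

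The antagonists did not all share a pattern, though Mxd4 and Mnt were both highest in bone, next in lung and lowest in RM1536 b. Mxd1 (chr6:86647042-86669161), a MAX partner known to be induced as cells stop dividing and differentiate, stood at 10.3 CPM in bone and 8.29 in lung, 8.33 and 6.28 in RM1536, and 16.1 and 25.4 in RM1. The RM1 libraries were the highest and did not overlap with the labelled cells. RM1536 against RM1 gave a log2 fold change of -1.51 ± 0.33 and an adjusted p of 0.0568, the smallest of any member in that comparison. Over the settings tried its adjusted p ran between 0.000134 and 0.214. Against RM1536, bone had 0.50 ± 0.39 (adjusted p = 0.782) and lung 0.18 ± 0.40 (0.852).

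Mxd3 (chr13:55325168-55329823) differs from the other MXD genes in that it is known to be expressed during S phase of dividing cells. It stood at 17.5 CPM in bone and 5.13 in lung, 24.6 and 48.6 in RM1536, and 21.6 and 8.85 in RM1. Lung was the lowest of the 6 libraries and RM1536 b the highest. Lung against RM1536 gave a log2 fold change of -2.83 ± 0.72 (adjusted p = 0.298), or -2.24 without RM1536 b (0.638). Bone against RM1536 had -1.07 ± 0.65 (0.693) and -0.49 without RM1536 b. Bone against lung had 1.77 ± 0.75 (0.594), and RM1536 against RM1 had 1.27 ± 0.51 (0.212). For RM1536 against RM1 leaving out RM1 a gave 2.02 and RM1 b gave 0.76, while leaving out RM1536 a gave 1.65 and RM1536 b gave 0.67. The duplicates again differed, 1.97-fold higher in RM1536 b than a and 2.44-fold higher in RM1 a than b. In Myc the order of the duplicates was the reverse in both lines. Exons of Prelid1 on the opposite strand cover 4.43% of the exon length of Mxd3, and the strand setting of the counts is not given in the sources used here.

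Mxd4 (chr5:34173883-34187720) stood at 72.4 CPM in bone and 53.2 in lung, 45.0 and 21.5 in RM1536, and 52.3 and 47.3 in RM1. Bone was the highest library, and lung was next and close to RM1 a. Bone against RM1536 gave a log2 fold change of 1.12 ± 0.43 (adjusted p = 0.461), with 1.76 without RM1536 a and 0.69 without RM1536 b. Lung against RM1536 had 0.68 ± 0.43 (0.500), and RM1536 against RM1 had -0.58 ± 0.36 (0.394). Without RM1536 a they were 1.33 and -1.24, and without RM1536 b they were 0.26 and -0.17. Exons of the antisense gene Gm42846 cover 6.06% of its exon length, and reads of the pair cannot be told apart without strand.

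Mnt (chr11:74830920-74845725), the most widely expressed of the antagonists, stood at 173 CPM in bone and 139 in lung, 114 and 91.4 in RM1536, and 114 and 132 in RM1. Bone was highest and lung next, and the culture groups overlapped. Bone against RM1536 gave a log2 fold change of 0.75 ± 0.26 (adjusted p = 0.406), lung against RM1536 0.44 ± 0.26 (0.481), RM1536 against RM1 -0.26 ± 0.22 (0.537), and bone against lung 0.31 ± 0.31 (0.792).

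Levels of different genes were compared per length, as CPM per kb of the union of annotated exons (GENCODE M21). Averaged over the 6 libraries, Odc1 was highest at 138 CPM per kb, then Cad (45.4), Max (34.2), Mnt (27.5), Myc (15.8), Mxd3 (8.88), Mxd4 (5.73), Mxd1 (1.76), Mycn (0.358) and Mycl (0.148). Myc made up 88.0% of the summed per-length level of the 3 MYC family genes in bone and 99.5% in lung. The share was 97.7% and 74.8% in RM1536 and 99.1% and 99.6% in RM1, so that Myc was the main family transcript in every library. Among the 4 antagonists, Mnt had the largest share in 5 libraries, 68.2% in bone, 75.8% in lung, 59.4% in RM1536 a, and 58.4% and 68.8% in RM1. In RM1536 b the shares were 45.2% for Mnt and 46.9% for Mxd3.

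The summed per-length level of the MYC family was 3.49 CPM per kb in bone and 45.9 in lung, 14.4 and 7.50 in RM1536, and 8.99 and 17.8 in RM1. The summed antagonists stood at 54.7 CPM per kb in bone and 39.7 in lung, 41.6 and 43.7 in RM1536, and 42.2 and 41.4 in RM1. The ratio of the MYC family to the antagonists was 0.0638 in bone and 1.16 in lung, 0.348 and 0.172 in RM1536, and 0.213 and 0.429 in RM1. Lung was the only library of the 6 with more MYC family than antagonist transcript per length, where antagonists are Mxd1, Mxd3, Mxd4 and Mnt. The MXD gene Mxi1 is not in that sum. It stood at 126 CPM in bone and 137 in lung, where Mnt had 173 and 139. In lung the margin was small, 45.9 against 39.7 CPM per kb, and Mxi1 was close to Mnt in CPM. The order in lung therefore holds only for the antagonist genes summed here. The exon length of Mxi1 was not taken, so a sum that includes it was not tested. The antagonist sum spanned a narrow range beside that of the MYC family, so that the ratio followed Myc. These are RNA levels, and MYC protein is known to turn over quickly and was not measured.

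**Figure D2:**
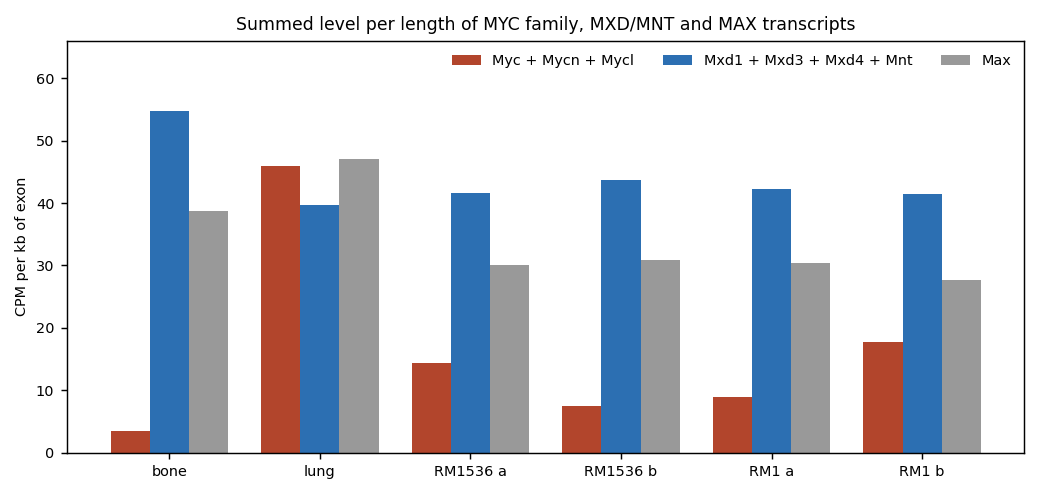
Summed level per length (CPM per kb of exon, bars from 0) of Myc, Mycn and Mycl, of Mxd1, Mxd3, Mxd4 and Mnt, and of Max, in each of the 6 libraries. The MYC family sum was 3.49 in bone and 45.9 in lung, while the antagonist sum lay between 39.7 and 54.7.

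The target genes code for enzymes. Odc1 (chr12:17544794-17551505), the rate-limiting ornithine decarboxylase of polyamine synthesis and a textbook MYC target, stood at 634 CPM in bone and 464 in lung, 459 and 501 in RM1536, and 390 and 369 in RM1. Bone was the highest library. Lung lay within the range of RM1536, and both RM1 libraries were below all others. The log2 fold change was 0.40 ± 0.24 in bone against RM1536 (adjusted p = 0.672), -0.05 ± 0.24 in lung against RM1536 (0.942), 0.34 ± 0.19 in RM1536 against RM1 (0.361) and 0.45 ± 0.28 in bone against lung (0.674).

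Cad (chr5:31054780-31078479) codes for the multi-enzyme protein that starts pyrimidine synthesis. It stood at 434 CPM in bone and 237 in lung, 291 and 498 in RM1536, and 446 and 324 in RM1. Lung was the lowest library and the other groups overlapped. The log2 fold change was 0.14 ± 0.39 in bone against RM1536 (adjusted p = 0.953), -0.74 ± 0.41 in lung against RM1536 (0.452), 0.03 ± 0.32 in RM1536 against RM1 (0.965) and 0.87 ± 0.46 in bone against lung (0.637). The sign of RM1536 against RM1 turned without RM1 b (-0.18) or RM1536 b (-0.43), and that of bone against RM1536 turned without RM1536 a (-0.19). The lung library, with the highest Myc, thus had the lowest Cad, and the bone library, with the lowest Myc, had the highest Odc1.

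No member was called at an adjusted p under 0.05 in any of the 4 comparisons by edgeR. In RM1536 against RM1, 0 of 10 members were called against 5.64% of all genes (780 of 13832; 2.1% higher and 3.54% lower). In bone against RM1536, 0 of 10 were called against 0.0145% of all genes (2, Padi4 and Trp53i11). In lung against RM1536, 0 of 10 were called against 0% of all genes, and 1902 genes had an unadjusted p under 0.05. In bone against lung, 0 of 10 were called against 0.00723% of all genes (1, Trp53i11). The number of members with an unadjusted p under 0.05 was 3, 3, 3 and 1 in that order of comparisons, beside 23.0%, 9.92%, 13.8% and 8.47% of all genes. DESeq2 called 2, 0, 2 and 1 members, beside 10.6%, 2.75%, 2.6% and 1.6% of all genes. Limma-voom called 0 members in each, beside 6.2%, 0%, 0% and 0% of all genes. Those DESeq2 called were Mycn and Mxd1 in RM1536 against RM1, Myc and Mxd3 in lung against RM1536, and Myc in bone against lung. The members' median log2 fold change was 0.05, 0.37, 0.31 and 0.39, beside 0.02, -0.03, -0.03 and 0.02 over all genes.

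**Figure D3:**
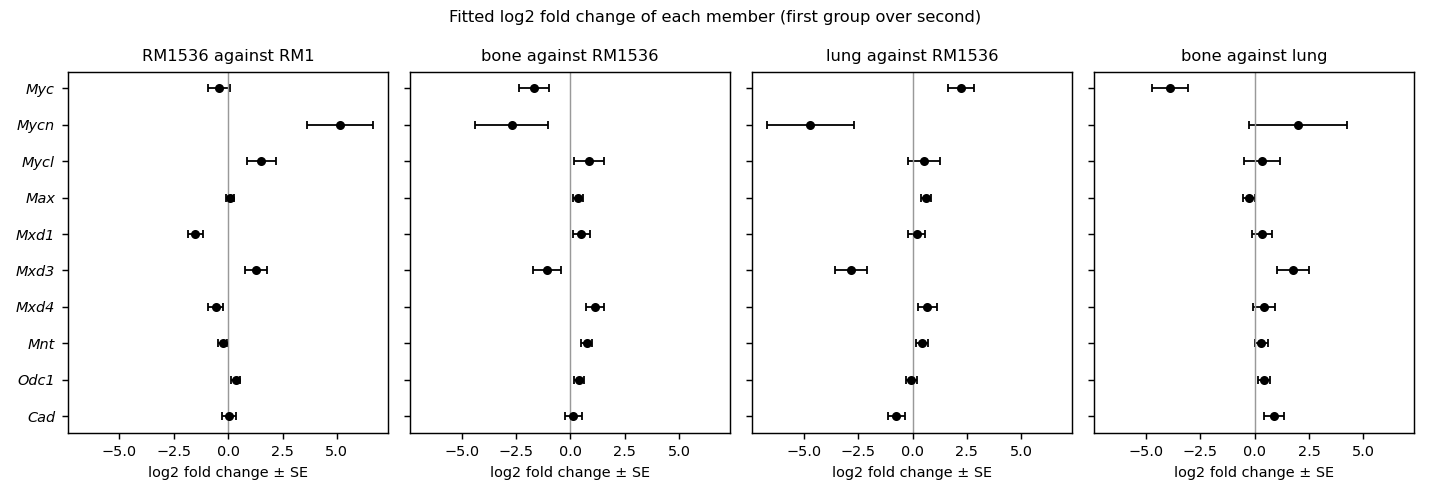
Fitted log2 fold change with its SE (horizontal bars) of each member in the 4 comparisons, the group named before "against" over the one named after it. Myc had -3.89 in bone against lung and 2.21 in lung against RM1536, and the widest bars belong to Mycn, which rested on few reads.

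Genes with the most similar pattern over the 6 libraries were found as the 3 with the smallest mean absolute difference of centred log2 CPM, among 9878 other genes with a mean of at least 5 CPM. For Myc these were 6030419C18Rik (mean difference 0.244), the collagenase gene Mmp13 (0.309) and Clec2d (0.353), which codes for a ligand of an NK cell receptor. Mmp13 stood at 6.28 CPM in bone and 103 in lung, 28.4 and 8.74 in RM1536, and 13.9 and 18.5 in RM1. For Mxd3 they were Fads2 (0.161), a fatty acid desaturase gene, the DNA repair exonuclease gene Exo1 (0.170) and the replication licensing gene Cdc6 (0.173). Cdc6 stood at 37.4 CPM in bone and 10.4 in lung, 38.5 and 83.4 in RM1536, and 34.1 and 13.2 in RM1. For Mxd1 they were Trafd1, Tom1l1 and Rhbdf2 (0.120 to 0.146), for Mxd4 Pdcd4, Fam102a and Stradb (0.102 to 0.155), and for Mnt Zfp955a, Wwtr1 and Snhg8 (0.0351 to 0.0478). Max was nearest to Dnajb12, Smarcd1 and Atf7 (0.0434 to 0.0555), Odc1 to Trps1, Atp13a2 and Dhx16 (0.0368 to 0.0505), and Cad to Tmem164 (0.0446) and Slc19a2 (0.0699) among others. With so few libraries, such likeness describes these samples only. Among the members themselves the nearest pair was Max and Odc1 (0.209), followed by Max and Mnt (0.220) and Mxd4 and Mnt (0.223).

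**Figure D4:**
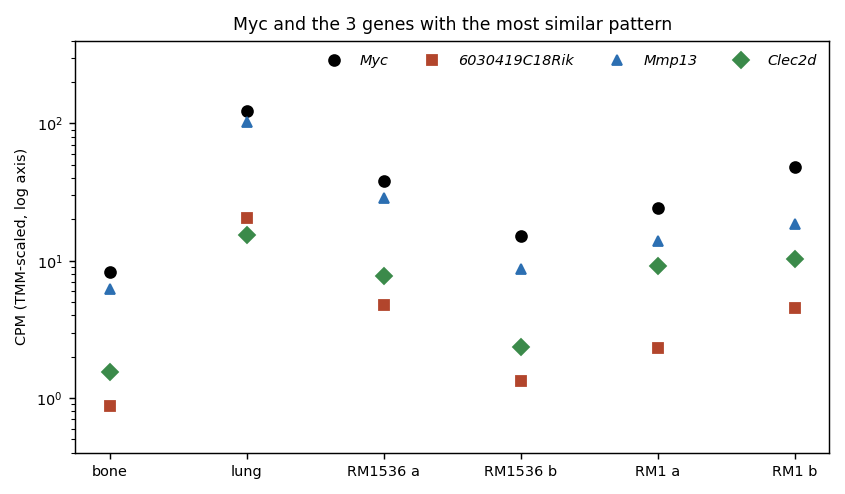
CPM on a log axis of Myc and the 3 genes with the most similar pattern, in each of the 6 libraries. All 4 genes were lowest in bone and highest in lung, with Myc at 8.34 CPM in bone and 124 CPM in lung.

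Other genes of the network were read from fixed lists. Of 7 further partners and antagonists on the MAX and MLX side, 6 were tested. By edgeR 0 were called in any comparison, beside 0% to 5.64% of all genes. Mxi1, which codes for another MXD protein, stood at 126 CPM in bone and 137 in lung, 83.0 and 59.7 in RM1536, and 71.3 and 81.5 in RM1. Its log2 fold change was 0.83 ± 0.28 in bone (adjusted p = 0.399) and 0.94 ± 0.28 in lung (0.321) against RM1536. Mga, a MAX partner in a repressive complex, had 90.1 CPM in bone and 64.9 in lung, 48.7 and 67.3 in RM1536, and 81.7 and 72.2 in RM1.

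Of 18 cofactor genes, all were tested and edgeR called 0, beside 0% to 5.64% of all genes over the comparisons. Hcfc1, which codes for a chromatin cofactor, lay between 199 and 405 CPM. Of 19 tested genes that control MYC protein stability, edgeR called 0, beside the same shares of all genes. The ubiquitin ligase gene Huwe1 lay between 231 and 486 CPM and the phosphatase subunit gene Ppp2r5a between 119 and 167 CPM. The median log2 fold change in bone against lung was 0.12 for cofactors and -0.10 for stability genes, beside 0.02 over all genes.

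Around Odc1, 17 of 19 polyamine genes were tested and edgeR called 1, in RM1536 against RM1, beside 5.64% of all genes. Arg1, the arginase that makes ornithine, was lower in RM1536, with 8.85 and 9.12 CPM against 57.6 and 30.3 in RM1, a log2 fold change of -2.29 ± 0.35 (BH adjusted p = 0.0252). It stood at 19.8 CPM in bone and 2.09 in lung (log2 fold change 3.24 ± 0.54, edgeR adjusted p = 0.219, or 0.0487 without RM1 b). DESeq2 called Arg1 in lung against RM1536 (adjusted p = 0.00808) and in bone against lung (2.19e-05) as well. The Arg1 call was lost without RM1536 a (adjusted p = 0.0891) or RM1536 b (0.107). Eif5a, whose protein carries a modification made from a polyamine, lay between 933 and 1675 CPM, and the antizyme gene Oaz1, whose protein inhibits ODC, between 371 and 576 CPM.

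Around Cad, 16 of 16 pyrimidine genes were tested and edgeR called 0 in any comparison, beside 0% to 5.64% of all genes. Uck2, a uridine salvage kinase, had 251 CPM in bone and 195 in lung, 217 and 327 in RM1536, and 311 and 242 in RM1. Dut, the dUTPase, had 94.2 CPM in bone and 321 in lung, 197 and 176 in RM1536, and 118 and 146 in RM1. Bone against lung gave a log2 fold change of -1.77 ± 0.31 for Dut (edgeR adjusted p = 0.250, DESeq2 adjusted p = 1.90e-04), while the list's median was 0.31, with 11 of 16 positive.

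Of 40 genes known to be activated by MYC, all were tested. By edgeR 0 of them were called in any comparison, beside 0% to 5.64% of all genes. In bone against lung 30 of 40 had a positive value, with a median log2 fold change of 0.21 beside 0.02 over all genes. Against RM1536, 3 of 40 were positive in bone (median -0.20) and 5 of 40 in lung (median -0.38). RM1536 against RM1 had 31 of 40 positive (median 0.17). The counts against RM1536 rested in part on RM1536 b: without it, 21 of 40 were positive in bone (median 0.02), 9 of 40 in lung (median -0.20), and 19 of 40 in RM1536 against RM1 (median -0.03). Without RM1536 a the medians were -0.36 in bone, -0.53 in lung and 0.34 in RM1536 against RM1, and without RM1 a the median of RM1536 against RM1 was 0.33, with 1 gene called higher. The summed level of the list was 13102 CPM in bone and 11995 in lung, 12995 and 15480 in RM1536, and 14447 and 12507 in RM1. Npm1, a nucleolar chaperone gene, lay between 1482 and 1753 CPM, and the nucleolin gene Ncl between 959 and 1804 CPM.

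**Figure D5:**
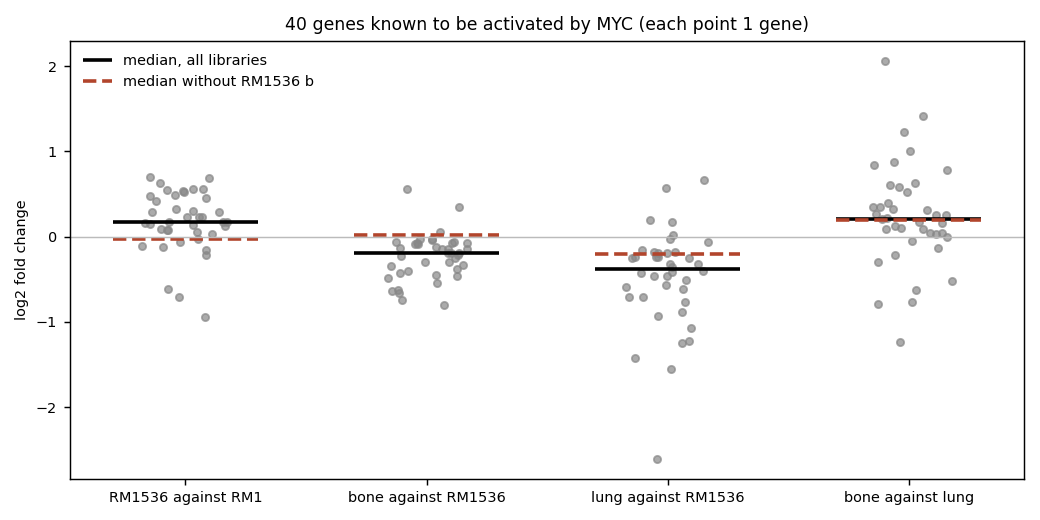
Log2 fold change of each of 40 genes known to be activated by MYC (points) in the 4 comparisons, with the median over all libraries (solid line) and without RM1536 b (dashed line). The median in bone against RM1536 was -0.20 with all libraries and 0.02 without RM1536 b, and in bone against lung it was 0.21 and 0.19.

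Of 16 genes known to be repressed by MYC, all were tested. In the fit of all libraries edgeR called 3 in RM1536 against RM1, all lower, beside 3.54% of all genes called lower. Cdkn2b, which codes for the cell cycle inhibitor p15INK4b, had 0 and 2 reads in RM1536 against 3075 and 2797 in RM1 (adjusted p = 0.00443), and 1 read in bone and 2 in lung. Clu, the clusterin gene, had 63.0 and 54.1 CPM in RM1536 against 572 and 498 in RM1, and the log2 fold change was -3.19 ± 0.23 (BH adjusted p = 0.00614). Gadd45g, a stress-response gene, had 28.0 and 24.2 CPM in RM1536 against 60.1 and 64.2 in RM1, and the log2 fold change was -1.25 ± 0.21 (BH adjusted p = 0.0302). The Gadd45g call was lost when any 1 of the 4 culture libraries was left out (adjusted p 0.0733 to 0.124). Clu stood at 345 CPM in bone and 136 in lung, and in bone against RM1536 its edgeR adjusted p was 0.0686, or 0.0405 without RM1 a and 0.0192 without RM1 b. With all libraries edgeR made 0 calls in this list in the other comparisons, and at most 1 when a culture library was left out. DESeq2 called Clu in bone against RM1536 (adjusted p = 2.85e-14), lung against RM1536 (0.00436) and bone against lung (0.0121). The median of the list of repressed genes was -0.24 in RM1536 against RM1, -0.26 in bone and 0.45 in lung against RM1536. In bone against lung the list's median was -0.34. Without RM1 a the median in RM1536 against RM1 was -0.47 and without RM1 b it was 0.02. Without RM1536 a it was -0.51, and without RM1536 b the median in lung was 0.27.

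Of 6 tested neighbours of Myc on chromosome 15, edgeR called Trib1, a pseudokinase gene, in RM1536 against RM1, beside 5.64% of all genes. Trib1 was lower in RM1536, with 39.7 and 35.8 CPM against 88.9 and 82.4 in RM1 and a log2 fold change of -1.18 ± 0.20 (BH adjusted p = 0.0299). It stood at 154 CPM in bone and 118 in lung (log2 fold change against RM1536 2.03 ± 0.23 and 1.65 ± 0.23, adjusted p = 0.0808 and 0.265), and the value in bone had an adjusted p of 0.0296 without RM1 b. DESeq2 called Trib1 in bone (adjusted p = 6.94e-09) and in lung (1.71e-05) against RM1536. The Trib1 call was lost when any 1 of the 4 culture libraries was left out (adjusted p 0.0618 to 0.118). Pvt1, the noncoding gene beside Myc, and Fam84b were chosen after their values were seen. Pvt1 had 5.80 CPM in bone and 13.5 in lung, 8.53 and 6.63 in RM1536, and 5.74 and 7.01 in RM1. Fam84b had 17.6 CPM in bone and 41.7 in lung, 34.5 and 16.3 in RM1536, and 15.8 and 34.6 in RM1. Sqle lay between 166 and 391 CPM, and Asap1 between 111 and 238 CPM.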

How the data were processed

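RNA sequencing of 6 libraries was deposited as raw counts per gene, made by the authors. Per the submitters' processing notes, TopHat2 2.1.10, HTSeq, edgeR and the build GRCm38 were used, with no role given. How strand was handled, and which counting mode and annotation release were chosen, is not given in the sources used here. A nameless entry (0.00626% to 0.00830% of counts) was left out, which left 23791. The tests were run with edgeR 4.0.16 under R 4.3.3, with TMM factors and filterByExpr with the groups. They used 1 quasi-likelihood model of all 6 libraries in 4 groups, BH adjustment over 13832 genes and a call at 0.05. The fitted fold changes were checked on simulated data less dispersed than these, which does not check the calls. The spread rests on 2 residual degrees of freedom and on a prior taken from all genes (median prior degrees of freedom 4.03). The biological coefficient of variation was 0.269. SE is the size of the log2 fold change over the square root of F. Log2 CPM used a prior count of 2. DESeq2 1.42.0, limma-voom 3.58.1, other scaling, other filters, a replicate block and leaving out each culture library were alternatives. Gene positions and exon lengths are from GENCODE M21 (GRCm38), promoters from RefSeq.

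The members and lists were chosen with earlier results of these data known. All 10 members are named; of each list, every called gene is named, and where fewer than 2 were called the 2 of highest mean CPM. An entry of the stability list that is the identifier of another gene was dropped, and alternative names of the same gene were counted once. Srm and Nme1 stand in more than 1 list. A few genes that these rules name are not reported here.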

Additional observations from a re-analysis of the deposited data

Results flagged for a closer look

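Myc was the member whose recovered libraries lay on opposite sides of both RM1536 libraries, with 8.34 CPM in bone and 124 in lung against 38.4 and 15.2 in RM1536. Bone against lung had a log2 fold change of -3.89 (edgeR adjusted p = 0.321, BH over all genes), and each site has 1 library of the same mouse, so the difference between sites was not tested across animals.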

How the results depend on the processing

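By edgeR, 0 members were called in each comparison with all libraries, with RLE size factors, with a stricter filter, by limma-voom and when any 1 culture library was left out. Without a low-count filter, 3 members were called in RM1536 against RM1, 3 in bone and 3 in lung against RM1536, and 2 in bone against lung. These stand beside 2394, 859, 1299 and 754 of the 22081 genes tested without a filter. DESeq2 called 2, 0, 2 and 1 members in that order. Genes called in RM1536 against RM1 numbered 780, against 2394 without a filter, 1471 by DESeq2 and 196 to 513 with 1 culture library left out. In bone against RM1536, 2 genes were called, against 859 without a filter, 380 by DESeq2, 0 by limma-voom and 0 to 128 with 1 library left out. In lung against RM1536, 0 were called, against 1299 without a filter, 359 by DESeq2 and 0 to 7 with 1 library left out. In bone against lung, 1 was called, against 754 without a filter, 221 by DESeq2, 0 by limma-voom, 0 under the stricter filter and 1 to 32 with 1 library left out. The cause of these differences was not tested.

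The letters a and b are shared by RM1 and RM1536, but nothing in the labels pairs them, and the b minus a differences of the lines had a correlation of -0.37 over 13832 genes. With the letter as a replicate block, 0 of 10 members and 295 of 12964 genes tested were called in RM1536 against RM1. Gadd45g (adjusted p = 0.0906) and Trib1 (0.0957) were not called. With the crossed pairing as a replicate block, added after the data were seen, 3 of 10 members and 3165 of 12964 genes tested were called.

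The sign of the fitted value held under all settings for 8 of 10 members in RM1536 against RM1, 8 in bone and 9 in lung against RM1536. In bone against lung no setting changes the single library of either site, so its values say nothing of stability. The adjusted p of Myc there ran from 2.89e-16 to 0.369. Mycn and Mycl have no value under the stricter filter, which they did not pass. Longest transcripts in place of exon unions moved the ratio of MYC family to antagonists in all 6 libraries by less than the spread between duplicates.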
